A study of Mus musculus with 11 samples.

Results

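The genes described are the EGR and NR4A activation-induced transcription factors Egr1, Egr2, Egr3, Nr4a1, Nr4a2 and Nr4a3, with the EGR corepressor Nab2 and the immediate early gene Ier2. These 8 of the 32469 gene symbols in the count table were selected on measured values, because Egr1 had a higher mean CPM after LAG-3 blockade in an earlier look at the same libraries. The question asked is whether the other genes follow Egr1 mouse by mouse. Of the 8, 6 passed the filter on low counts and were tested among 6949 genes, and Egr2 and Egr3 did not pass and are given by their counts.

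Bulk RNA-seq was performed on precursor exhausted T cells, the stem-like exhausted subset, sorted as CD8+PD-1+Ly108+TIM-3-CD62L- from Lewis lung carcinoma (LLC) tumors, with 1 library per mouse. The mice were wild-type female C57BL/6 mice, 8 weeks old when purchased, bearing an LLC tumor in each flank. The 5 untreated mice (libraries 1 to 5) are labelled untreated, with no control antibody named, and the 6 aLAG3 mice (libraries 6 to 11) received 200 µg of anti-LAG-3 (clone C9B7W) intraperitoneally on days 14 and 16 after inoculation. Tumors were excised on days 14 and 18 according to the methods of the study and on days 14 and 21 according to the deposited sample text, and were digested for 45 min at 37 °C before sorting.

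Library depth was 317449 to 1271063 counts in untreated mice and 313524 to 1901374 in aLAG3 mice. The 6 CD8 T cell markers summed to 4846 to 5141 CPM (counts scaled to an equal library total) in untreated mice and 4880 to 5388 in aLAG3 mice. Of 11 myeloid markers 9 were detected, at 22.1 to 58.3 CPM in untreated and 23.6 to 149.9 CPM in aLAG3 mice, with S100a8 and S100a9 at 0 in every library. B cell markers, of which 5 were detected, summed to 1.77 to 5.10 CPM in untreated and 4.81 to 12.8 CPM in aLAG3 mice. The 3 NK cell markers summed to 23.0 to 68.7 and 9.57 to 36.7 CPM, almost all of it Gzma (mean 27.1 CPM), a granzyme gene that CD8 T cells also express, since Klrb1c averaged 1.5 CPM and Ncr1 was at 0 in 10 libraries. The sort's antibody panel had an exclusion channel for CD11b, B220, NK1.1 and TER119, which mark myeloid, B, NK and erythroid cells. In bulk samples, fewer cells of a type and less RNA per cell cannot be told apart. Library titles also carry a number after RNABC, called the primer barcode here, which was 9 in 3 untreated and 3 aLAG3 libraries, 8 in 1 untreated and 3 aLAG3 libraries, and 10 in 1 untreated library. The 6 libraries with barcode 9 held 566144 to 1901374 counts and the 4 with barcode 8 held 313524 to 451465, so barcode and depth cannot be told apart. A second label in the titles, whose meaning is not stated either, was shared by untreated mice 2 and 3 with aLAG3 mouse 10. Untreated mice 4 and 5 shared another, and the other 6 libraries each had their own. Wherever this label was a covariate or used for centring, those 6 libraries were entered as a single level. Their separate labels were therefore not adjusted for, and only mouse 1 among them was untreated.

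EGR proteins are zinc finger factors that are transcribed within minutes of T cell receptor engagement through the Ras-ERK pathway, and NAB2 binds EGR proteins and represses their targets. NR4A proteins are orphan nuclear receptors whose genes are induced by the same receptor through calcium, NFAT, MEF2 and CREB factors, and they are known for maintaining the exhausted state of tumor-infiltrating CD8 T cells. Their mRNAs are short-lived.

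Because Nr4a2 and Nr4a3 varied together across mice more closely than any other pair of these genes, the promoter DNA of the 3 NR4A genes is shown, from RefSeq windows of GRCm38.p6 that run from 250 bases before to 50 bases after the gene start. Each stretch is printed 5′ to 3′ on the gene's strand up to the first base of an annotated exon, and capitals mark the core of the cyclic AMP response element (CRE half-site, TGACG on either strand). The stretches lie at chr15:101266596-101266845 (plus strand) for Nr4a1, chr2:57124004-57124253 (minus strand) for Nr4a2 and chr4:48045055-48045152 (plus strand) for Nr4a3.
Nr4a1: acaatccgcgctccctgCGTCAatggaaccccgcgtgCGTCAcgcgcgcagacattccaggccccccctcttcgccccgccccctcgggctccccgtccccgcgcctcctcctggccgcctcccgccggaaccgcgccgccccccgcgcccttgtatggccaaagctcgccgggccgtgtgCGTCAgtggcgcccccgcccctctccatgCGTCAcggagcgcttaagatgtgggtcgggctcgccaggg
Nr4a2: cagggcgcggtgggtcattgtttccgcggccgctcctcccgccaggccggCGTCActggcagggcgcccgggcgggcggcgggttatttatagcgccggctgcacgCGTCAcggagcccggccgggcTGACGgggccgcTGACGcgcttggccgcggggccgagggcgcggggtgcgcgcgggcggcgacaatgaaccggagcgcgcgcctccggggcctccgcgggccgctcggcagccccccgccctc
Nr4a3: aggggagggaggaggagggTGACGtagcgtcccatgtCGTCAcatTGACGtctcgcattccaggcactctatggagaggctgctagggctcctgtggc

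The window of each NR4A gene held 4 CRE half-sites, of which 3 lie in the printed stretch of Nr4a3. At least 1 half-site was present in 20.8% of the 32851 mouse promoter windows of the same length and at least 4 in 0.231%. The cut-off of 4 is the count found in these same windows, so the 0.231% is a description and supports nothing. The windows compared were not matched for G and C content. The printed stretches were 74.4%, 80.0% and 61.2% G or C for Nr4a1, Nr4a2 and Nr4a3, whereas the median over all windows was 52.7%. An EGR site (GCGNGGGCG) was found in the windows of Nr4a1 and Nr4a2 and in 5.55% of all windows, and these letters were not in the window of Nr4a3. In the 5 Egr2 windows, which overlap in part, CRE half-sites were found in 3 and the CArG box, the site of serum response factor, in 4, with the CArG box in 1.63% of all windows. The Nab2 window held none of the motifs searched. The full CRE (TGACGTCA, 1.79% of windows), the AP-1 site (TGANTCA, 7.81%), the NR4A monomer site NBRE (AAAGGTCA, 1.51%) and the strict form of the MEF2 site, with C first and G last (0.557%), were found in no window of these genes. A wider form, with either pyrimidine first and either purine last, was found in the Nr4a2 window, 167 bases before the start, and in 3.19% of all windows. All motifs were searched on both strands, a full CRE contains the half-site on each strand, and a match is a description of the sequence only. Windows of Egr1, Egr3 and Ier2 were not analysed here.

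**Figure D1:**
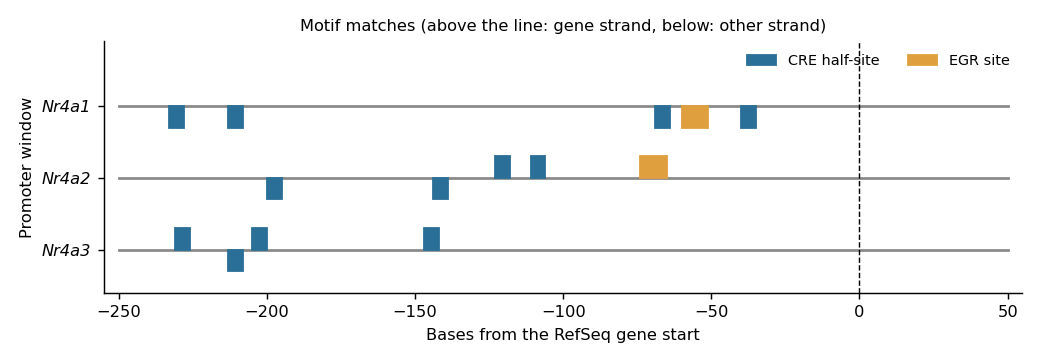
Matches to the CRE half-site (blue) and the EGR site (orange) in the promoter windows of Nr4a1, Nr4a2 and Nr4a3, by distance in bases from the RefSeq gene start (dashed line), above each line for the strand of the gene and below it for the other strand. Each window holds 4 CRE half-sites, all upstream of the start, and the EGR sites of Nr4a1 and Nr4a2 lie within 80 bases of it.

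Egr1 (chr18:34859823-34864984, plus strand, GRCm38) encodes the EGR factor with the most reads here and is the gene on which the set was chosen. Its level was 41.9, 23.1, 36.5, 61.5 and 43.1 CPM in untreated mice 1 to 5 and had a lowest, median and highest value of 37.0, 62.9 and 89.7 CPM in the 6 aLAG3 mice. The groups overlapped, since aLAG3 mouse 6 was below 3 untreated mice and untreated mouse 4 was above 2 aLAG3 mice. Untreated mice averaged 41.2 ± 13.8 CPM (SD, n = 5) and aLAG3 mice 63.3 ± 17.5 CPM (SD, n = 6), on 7 to 112 counts per library. The fitted log2 fold change was 0.57 ± 0.21 (SE). This contrast chose the genes, so it is a description and supports nothing. Within barcode 9 the untreated mice had 36.5 to 43.1 CPM and the aLAG3 mice 37.0 to 72.0 CPM, and the log2 fold change was 0.49 in those 6 libraries and 0.42 with barcode as a covariate. Without the 3 libraries that share a title label (untreated 2 and 3, aLAG3 10) it was 0.38.

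Egr2 (chr10:67535475-67542188, plus strand) and Egr3 (chr14:70077203-70082614, plus strand), EGR factors known to restrain T cell activation, were near the limit of detection. Egr2 had 11 counts over all untreated and 23 over all aLAG3 libraries, which is 3.08 CPM (95% exact Poisson interval 1.54 to 5.52) and 4.80 CPM (3.04 to 7.20). For Egr3, 14 and 29 counts gave 3.92 CPM (2.15 to 6.58) and 6.05 CPM (4.05 to 8.69). The intervals cover counting error only and overlap for both genes, which is not a test of a difference. In an edgeR fit without a filter on low counts, neither gene reached an adjusted p under 0.05 between the groups. No single library held more than 12 counts of either gene, Egr2 was at 0 in 1 library and Egr3 in 2. A count of 0 allows 1.58 to 9.57 CPM depending on depth (3 counts), so neither was followed mouse by mouse in the main test. Without a filter on low counts both were set against Egr1, and neither passed the adjusted threshold.

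The NR4A genes had means that differed little between the groups. Nr4a1 (chr15:101254269-101274795, plus strand), encoding NUR77, was at 330, 343, 389, 374 and 328 CPM in untreated mice 1 to 5 and at 289, 351 and 394 CPM (lowest, median, highest) in aLAG3 mice, with a log2 fold change of -0.035 ± 0.095 (SE). Nr4a2 (chr2:57106830-57124003, minus strand), encoding NURR1, was at 682, 422, 565, 809 and 478 CPM in untreated and at 428, 588 and 651 CPM in aLAG3 mice, a log2 fold change of -0.10 ± 0.13. Nr4a3 (chr4:48045153-48086447, plus strand), encoding NOR1, was at 282, 115, 223, 300 and 159 CPM in untreated and at 154, 226 and 272 CPM in aLAG3 mice, a log2 fold change of -0.08 ± 0.17. All 3 genes overlapped widely between the groups, and for Nr4a2 and Nr4a3 the highest and the lowest mouse were both untreated. In aLAG3 mice the 3 barcode 8 libraries were at 625.2 to 651 CPM for Nr4a2 and 229 to 272 CPM for Nr4a3, above all 3 barcode 9 libraries at 428 to 551 and 154 to 223 CPM, and the untreated barcode 8 library was the highest of its group for both. With barcode as a covariate the log2 fold changes were -0.06 for Nr4a1, -0.27 for Nr4a2 and -0.28 for Nr4a3, and within barcode 9 alone they were -0.06, -0.24 and -0.29.

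Nab2 (chr10:127660918-127668568, minus strand) encodes the corepressor that EGR proteins recruit. It was at 31.2, 16.5, 21.4, 38.4 and 15.01 CPM in untreated mice and at 7.56, 27.6 and 40.6 CPM (lowest, median, highest) in aLAG3 mice, on 3 to 38 counts per library, and the log2 fold change was -0.07 ± 0.29. Nab2 is uncertain, because it overlaps Nemp1, Gm16229 and Stat6 on the other strand and shares sequence with other genes. Searched on either strand, 34.9% of its 50-base stretches occur in transcripts of other genes. The other 7 genes overlap no annotated gene and shared at most 0.15% of such stretches, and none was shared between these 8 genes. Ier2 (chr8:84661331-84662852, minus strand), encoding a nuclear immediate early protein, was at 392, 307, 396, 446 and 424 CPM in untreated and at 380, 447 and 517 CPM in aLAG3 mice. Its log2 fold change was 0.18 ± 0.10, with 5 of 6 aLAG3 mice above the untreated median, and was 0.08 with barcode and 0.30 with the shared title label as a covariate.

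Across all 6949 genes, the edgeR quasi-likelihood test called 0 genes after Benjamini-Hochberg adjustment (0%, smallest adjusted p = 0.9996), with 258 genes (3.71%) at an unadjusted p under 0.05. The likelihood ratio test also called 0, with 307 at that unadjusted p, and DESeq2 called 0 with 163. Of the 6 tested genes the fitted log2 fold change was above 0 for Egr1 and Ier2 and below 0 for the other 4, of which Nr4a3 and Nab2 had slightly higher mean CPM in aLAG3 mice. Of these 6 genes 0 were called, Egr1 alone was under an unadjusted 0.05, and 0 had groups that did not overlap, against 33 genes (0.475%) of all tested. With barcode as a covariate 3 of the 6 (Egr1, Nr4a2 and Nr4a3) were under an unadjusted 0.05, beside 4.71% of all genes. With the title label as a covariate, where the 6 unshared labels formed a single level, 2 were (Egr1 and Ier2), beside 3.21%. Without the 3 libraries of one title label 0 were, beside 4.46%, and 0 were called in each of these fits. Nothing is read from these counts, since the same contrast chose the genes.

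**Figure D2:**
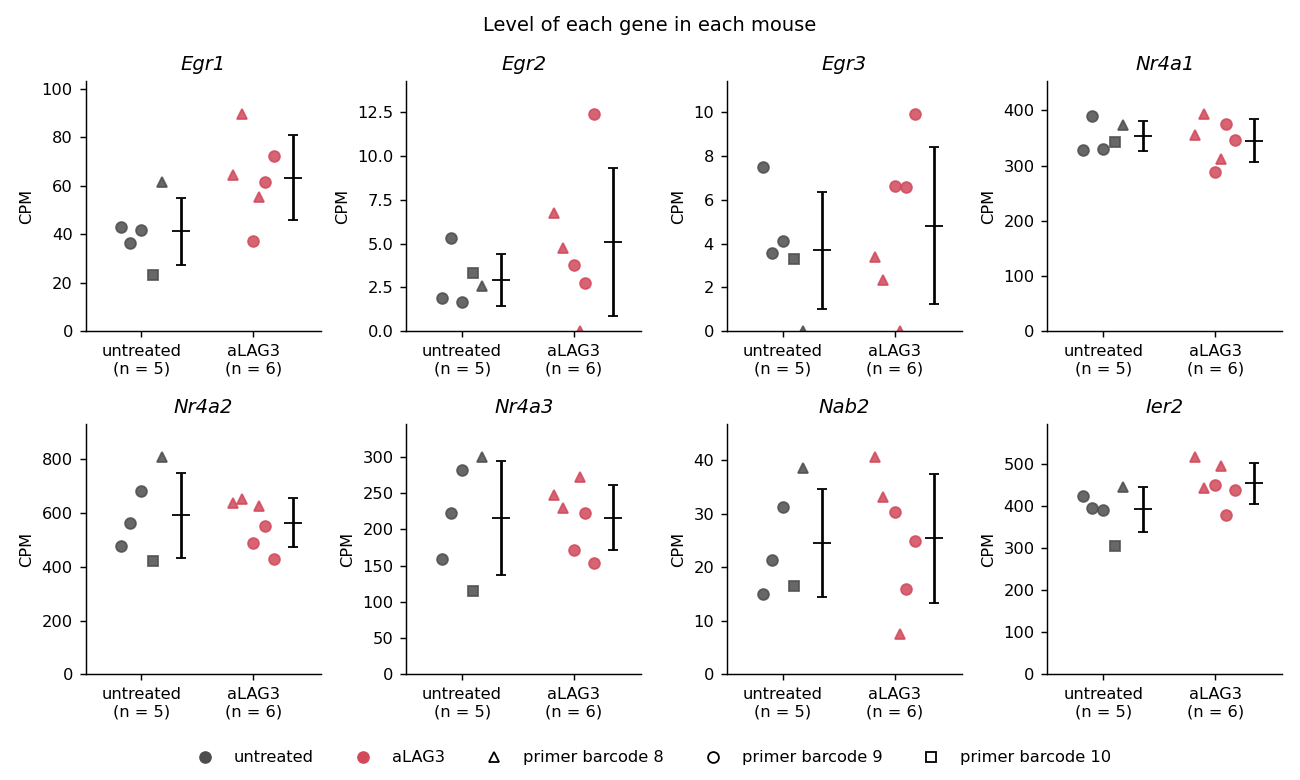
Level of each of the 8 genes (CPM, axes start at 0) in each of 5 untreated (grey) and 6 aLAG3 (red) mice, with marker shape for primer barcode and bars for the mean ± SD. The groups overlap for every gene, the fitted fold of aLAG3 over untreated is 1.49 for Egr1 and 1.14 for Ier2, and Egr2 and Egr3 stay under 13 CPM.

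The mice of a group differed by unequal amounts from gene to gene. The within-group SD of log2 CPM was 0.67 for Nab2, 0.45 for Nr4a3, 0.44 for Egr1, 0.31 for Nr4a2, 0.18 for Ier2 and 0.14 for Nr4a1, where the median over all tested genes was 0.30. Counting error alone gives 45.0% of that variance for Nab2, 44.0% for Egr1, 54.0% for Nr4a1 and 28.4% for Ier2, but 9.99% for Nr4a3 and 7.20% for Nr4a2. Most of the spread of Nr4a2 and Nr4a3 was therefore beyond counting error, whereas a large part of the spread of Egr1 was within it. The edgeR dispersion, which takes the count level into account, was at the 96.96 percentile of all tested genes for Nab2, 90.8 for Nr4a3, 85.9 for Egr1, 78.5 for Nr4a2, 37.6 for Ier2 and 34.0 for Nr4a1.

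To ask whether the other genes follow Egr1 mouse by mouse, log2 CPM was centred on the mean of each group, so that a difference between the groups does not enter, and was correlated with Egr1 over the 11 mice. All 5 other tested genes had a positive r with Egr1, beside 49.8% of all genes, and none was called. Pearson's r was 0.62 for Nr4a2 (exact two-sided permutation within groups, p = 0.0636, adjusted over all genes 0.729), 0.61 for Nr4a1 (p = 0.0525, adjusted 0.707) and 0.58 for Nr4a3 (p = 0.0912, adjusted 0.755). It was 0.49 for Ier2 (exact permutation p = 0.159, adjusted 0.770) and 0.36 for Nab2 (p = 0.289, adjusted 0.825). Spearman's rho was 0.50, 0.44, 0.31, 0.26 and 0.47 in the same order (exact permutation p = 0.166, 0.194, 0.413, 0.454 and 0.163, adjusted p between 0.881 and 0.926). The median r of the 5 genes was 0.58, the median over all 6948 genes was -0.0026 (quartiles -0.28 and 0.27), and 5.83% of single genes had an r as high as the median of the 5. That share describes single genes and is not a p for a median of 5, and the set was not tested. The 5 values are also not independent, since Nr4a2 and Nr4a3 varied together across mice.

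No gene of 6948 followed Egr1 at an adjusted p under 0.05 (0%), with a smallest adjusted p of 0.664. An unadjusted p under 0.05 was reached by 490 genes (7.05%), 254 of them with r above 0 (3.66%), and 0 of the 5 genes were among them. The smallest p that the 86400 orders of the mice allow is 1.16e-05, which is above the p that 1 gene would need to pass alone, so the test has little room to call a gene. An edgeR regression of every gene on the Egr1 level with group as a covariate, which does not have this floor, also called 0 genes (0%, smallest adjusted p = 0.144), with 375 (5.40%) at an unadjusted p under 0.05, 2 of the 5 genes (Nr4a2 and Nr4a3) among them. In it the log2 slope per log2 unit of Egr1 was 0.42 ± 0.15 (SE) for Nr4a2, 0.50 ± 0.21 for Nr4a3, 0.21 ± 0.12 for Nr4a1, 0.16 ± 0.12 for Ier2 and 0.33 ± 0.40 for Nab2, with adjusted p between 0.868 and 0.972.

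**Figure D3:**
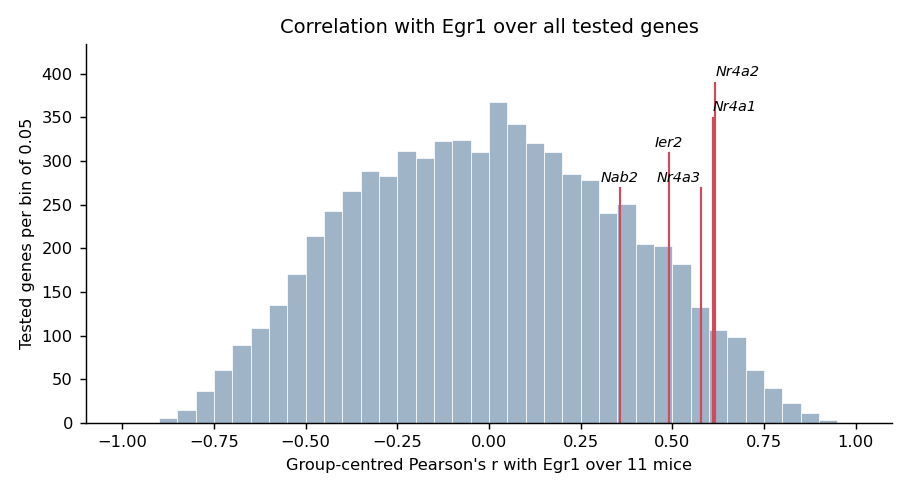
Number of tested genes in each bin of 0.05 of group-centred Pearson's r with Egr1 over the 11 mice, with red lines at the 5 other genes. The genes sit on the right of the distribution, between 0.36 for Nab2 and 0.62 for Nr4a2, with 18.4% of all genes at or above the lowest of them.

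The size of r changed with the mice that were included. It was below 0 within primer barcodes for Nr4a2, Nr4a3 and Ier2, and for Nab2 in barcode 9 alone. Relative to its group, Egr1 was lowest in untreated mouse 2 and aLAG3 mouse 6, and without these 2 mice r was 0.44 for Nr4a1, 0.37 for Nr4a2, 0.08 for Nr4a3 and 0.13 for Ier2, but 0.63 for Nab2. Untreated mouse 2 is the only library with barcode 10 and among the shallowest. With each mouse left out in turn, r ran from 0.39 (without aLAG3 mouse 6) to 0.69 for Nr4a1, from 0.44 (without untreated mouse 2) to 0.80 (without aLAG3 mouse 9) for Nr4a2, and from 0.29 to 0.71 without the same mice for Nr4a3. It ran from 0.11 (without untreated mouse 2) to 0.59 (without aLAG3 mouse 6) for Ier2 and from 0.21 (without untreated mouse 4) to 0.59 (without aLAG3 mouse 6) for Nab2. Without the 3 libraries that share a title label r was 0.91 for Nr4a1 (exact permutation p = 0.0111, adjusted 0.827), 0.40 for Nr4a2, 0.27 for Nr4a3, 0.25 for Nab2 and 0.01 for Ier2. When the values were centred on group and primer barcode together, r was 0.68 for Nr4a1 and 0.16 for Nab2, but -0.10 for Nr4a2, -0.18 for Nr4a3 and -0.49 for Ier2 (exact permutation p = 0.861, 0.699 and 0.384 for these 3). Untreated mice 2 and 4, with the lowest and highest Egr1 of their group, are each the only untreated mouse of their barcode. They add nothing to these values, which rest on the other 9 mice. In the 6 barcode 9 libraries alone r was 0.54 for Nr4a1, -0.18 for Nr4a2, -0.05 for Nr4a3, -0.30 for Ier2 and -0.40 for Nab2. The part of barcode and of depth in these values was not tested. Only Nr4a1 kept an r above 0 under each of these settings. Its exact permutation p was 0.153 within group and barcode and 0.556 in barcode 9 alone. Regression on Egr1 with barcode as a further covariate called 1 gene (0.0144%), Noct, which encodes a circadian phosphatase and was named after its value was seen, and gave slopes of 0.31 ± 0.17 for Nr4a1, -0.01 ± 0.18 for Nr4a2 and -0.07 ± 0.25 for Nr4a3.

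**Figure D4:**
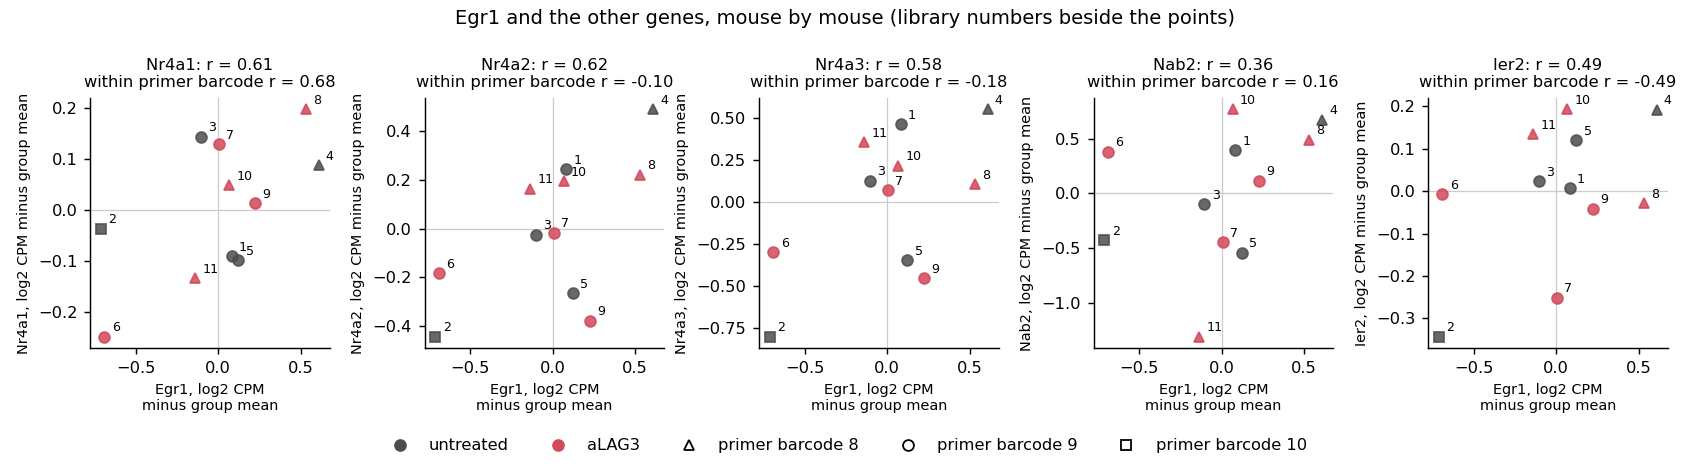
Group-centred log2 CPM of Nr4a1, Nr4a2, Nr4a3, Nab2 and Ier2 (y axes) against that of Egr1 (x axis) in 11 mice, coloured by group, shaped by primer barcode and labelled with the library number, with r over all mice and within primer barcode above each panel. Mice 2 and 6 lie far to the left, barcode 8 libraries 4 and 8 far to the right, and r within barcode is above 0.5 for Nr4a1 alone.

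Without centring, over all 11 mice pooled, r with Egr1 was 0.66 for Ier2 (permutation p = 0.0283, adjusted 0.664, rho 0.41 with p = 0.212), 0.50 for Nr4a3, 0.44 for Nr4a2, 0.40 for Nr4a1 and 0.27 for Nab2 (permutation p between 0.116 and 0.413, adjusted 0.730 to 0.887, rho 0.27 to 0.43 for these 4). The pooled value of Ier2 takes in the group difference of both genes.

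The closest relation among these genes was between Nr4a2 and Nr4a3. Their group-centred r was 0.952 (exact two-sided permutation p = 0.000104) and rho was 0.918 (exact permutation p = 0.00154) over 11 mice. Of 6948 genes, Nr4a3 had the highest r with Nr4a2, ahead of Cacul1 at 0.901 and Ywhaz at 0.899, and Nr4a2 had the highest r with Nr4a3. Untreated mouse 4 was the highest of all 11 mice for both genes and untreated mouse 1 the second, and mice 6, 5, 9 and 2 were the 4 lowest in the same order for both. The adjusted p of the permutation test was 0.362 over the genes tested with Nr4a2 and 0.425 over those tested with Nr4a3, and 0 genes (0%) were called with Nr4a2. In the edgeR regression on the Nr4a2 level, chosen after the correlation was seen, 1 gene (0.0144%) was called and it was Nr4a3, with a slope of 1.34 ± 0.19 and an adjusted p of 0.0023. Regression on the Nr4a3 level called 4 genes (0.0576%), Nr4a2 with the lowest p (slope 0.67 ± 0.10, adjusted p = 0.00602) and Areg, Tnfsf11 and Zfp36l2, which were named after their values were seen.

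The r of Nr4a2 and Nr4a3 stayed between 0.946 and 0.966 when each mouse was left out, was 0.947 without untreated mice 2 and 4, the farthest from the median of Nr4a2, 0.924 within group and barcode and 0.981 in the barcode 9 libraries alone. With barcode as a covariate in the regression the slope of Nr4a3 on Nr4a2 was 1.46 ± 0.33 (edgeR adjusted p = 0.3605, 0% of genes called) and that of Nr4a2 on Nr4a3 was 0.59 ± 0.16 (adjusted p = 0.840, 0.0144% called). The call was thus lost with barcode in the model, and both slopes stayed positive. Regression on Nr4a3 with barcode called Actn1 alone, likewise named afterwards. The Nr4a2 and Nr4a3 transcripts share no stretch of 50 bases.

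Of all 15 pairs of tested genes, 14 had an r above 0, with a median of 0.38. Only the pair of Nr4a2 and Nr4a3 was under an unadjusted p of 0.05 by r, and by rho the pair of Nr4a3 and Ier2 was as well (rho 0.70, exact permutation p = 0.0169, adjusted 0.582). Ier2 had an r of 0.58 with Nr4a2 and 0.60 with Nr4a3, which were 0.34 and 0.24 without untreated mouse 2 and turned negative within group and barcode, at -0.60 and -0.51. Nr4a1, although of the same family, had an r of 0.32 with Nr4a2 and 0.26 with Nr4a3, and its pair with Ier2 was the only negative one, at -0.11 and at -0.69 within group and barcode.

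**Figure D5:**
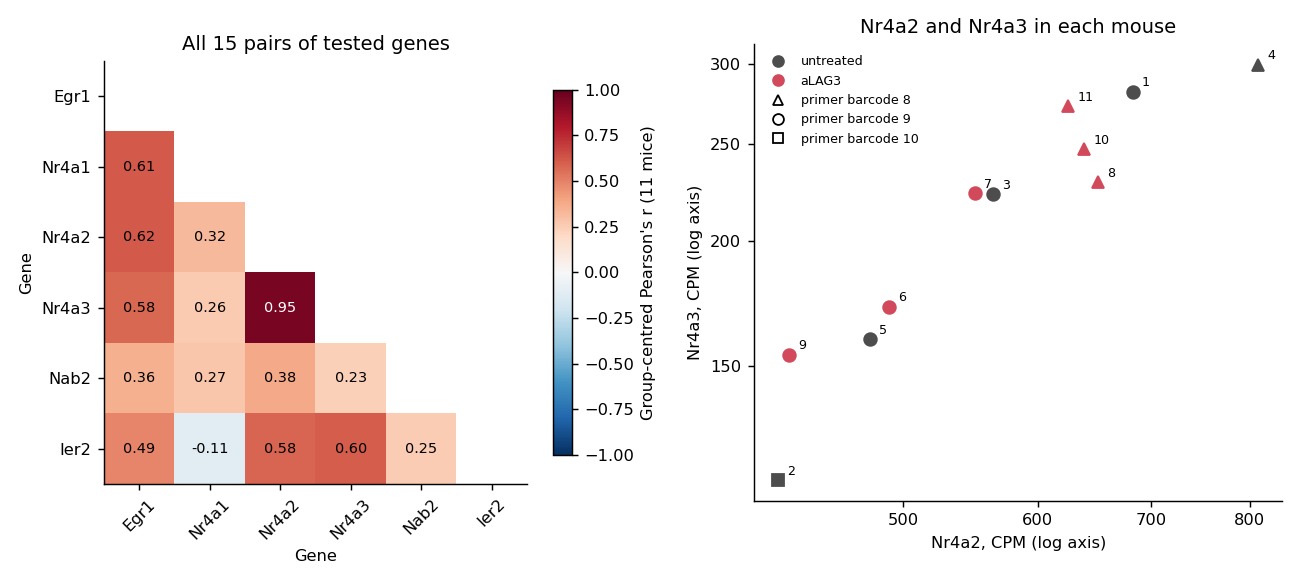
Left, group-centred Pearson's r of all 15 pairs of the 6 tested genes over 11 mice. Right, Nr4a3 against Nr4a2 in CPM (both axes logarithmic) in each mouse, coloured by group, shaped by primer barcode and labelled with the library number, where mice 4 and 1 are highest and mice 6, 5, 9 and 2 lowest for both genes.

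Other measures were set beside Egr1 over the same mice. Group-centred r with Egr1 was -0.11 for log2 total count, -0.31 for the mean of 9 heat shock genes, 0.23 for the myeloid, 0.28 for the B cell and 0.48 for the NK cell marker sums, and -0.61 for the CD8 T cell marker sum (exact permutation p = 0.0507, adjusted over 13 relations 0.632, with rho -0.58, p = 0.0767, adjusted 0.635). The other 12 had adjusted p of 0.632 or above for r and 0.635 or above for rho. For Nr4a2 the r with the myeloid sum was 0.49 and with the total count -0.13, with adjusted p of 0.733 for each of the 13 (exact permutation). The part of these cells or of depth in the results was not tested.

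Genes of the same pathways were described from lists, beside all tested genes, of which 51.1% were higher in aLAG3 mice and whose median log2 fold change was 0.004. Of 30 other immediate early genes 29 were tested, and 22 were higher and 7 lower in aLAG3 mice with a median of 0.12. Of the 29, 0 passed the adjusted threshold. An unadjusted p under 0.05 was reached by 4 (Nfkbia, Klf6, Myc and Klf4), named for this, beside 3.71% of all tested genes. The most abundant were Nfkbia, the NF-κB inhibitor (0.22 ± 0.08, SE), Junb, an AP-1 subunit (0.11 ± 0.07), and Tnfaip3, encoding A20 (0.07 ± 0.08). With Egr1, 18 of the 29 had a positive r, beside 49.8% of all genes, and the median was 0.13. The highest were 0.77 for Ppp1r15a and 0.76 for Gadd45b. By permutation 4 of the 29 were under an unadjusted p of 0.05, beside 7.05% of all genes, and 0 were called.

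Of 32 genes induced by T cell receptor signals or bound by EGR2, EGR3 or NR4A factors, 29 were tested, 19 were higher and 10 lower, 0 passed, and the median log2 fold change was 0.04. The most abundant were the chemokine gene Xcl1 (0.02 ± 0.08), Pdcd1, encoding PD-1 (-0.24 ± 0.10), and the inhibitory receptor gene Tigit (0.01 ± 0.09). An unadjusted p under 0.05 was reached by 3 of the 29, beside 3.71% of all tested genes. They were Pdcd1, Tox, a factor of the exhausted state, and Dgkz, a diacylglycerol kinase gene. The median r of the 29 with Egr1 was 0.03, with 16 of 29 above 0, beside 49.8% of all genes, and 0 called. Of 18 regulators upstream of these promoters 13 were tested, 7 higher and 6 lower with a median of 0.0034 and 0 called. Among them Nfatc1, a calcium-regulated factor, was at 0.01 ± 0.13, the kinase gene Map2k2 at 0.11 ± 0.12, and the list's median r with Egr1 was 0.04.

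Of 5 other EGR, NAB and IER family genes 3 were tested and 0 called, with log2 fold changes of 0.05 ± 0.17 for Ier5, -0.14 ± 0.17 for Nab1 and 0.47 ± 0.27 for Ier3. Ier5 had an r of 0.67 with Egr1 (exact permutation p = 0.0346, adjusted 0.693), higher than any of the 5 genes, Ier3 had 0.16 and Nab1 -0.14. Of 13 heat shock genes, which encode stress-induced chaperones, 9 were tested, 7 were higher and 2 lower with a median of 0.08, and 0 were called. The most abundant, Hsp90ab1, Hspa8 and Hsp90aa1, had r with Egr1 of -0.38, -0.46 and 0.06. Of the 9, 3 were above 0, beside 49.8% of all genes.

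The genes most like Egr1 over the 11 mice by group-centred r were Apopt1 (0.914), Gm9416 (0.911), Pml (0.905), Hdac3 (0.886), Zfp52 (0.876), Sh3bp1 (0.866), Hmces (0.865), Gm12191 (0.864), Yipf5 (0.862) and Zc3hav1 (0.861). The most opposite were Cnp (-0.877), Pkmyt1 (-0.876), Nipsnap1 (-0.867), Gm9396 (-0.863) and Dohh (-0.856). All 15 had an adjusted p of 0.664, their mean levels ran from 19.3 CPM for Nipsnap1 to 270.1 CPM for Zc3hav1, and none was on a list used here.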

How the data were processed

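Raw counts per gene symbol were deposited by the authors after adapter trimming (Cutadapt) and Bowtie2 mapping against GRCm38 reference RNA. The submitters' processing notes name cutadapt 4.1 and Bowtie2 2.4.5. The handling of reads that map to several genes and of strand is not given in the sources used here. Column names were matched to sample titles.

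Genes were kept by filterByExpr (at least 17.7 CPM, which is 10 counts in the median library, in a minimum of 5 libraries, and 15 counts in all) and normalized by TMM. Groups were compared with edgeR 4.0.16 (quasi-likelihood test, Benjamini-Hochberg, threshold 0.05, R 4.3.3), with DESeq2 1.42.0 as an alternative, and SE is the absolute log2 fold change over the square root of F. Correlations use log2 CPM (prior count 2) centred on group means, with 86400 exact orders of mice within groups, or 100000 random orders where pooled. Scripts were tested on simulated data. The text names the 8 genes, the 10 highest and 5 lowest by r with Egr1, and the 3 most abundant genes of each list, of which 1 is not reported here. Other genes were named after their values were seen, for a p under the threshold or a high r. Members and lists were chosen with earlier results of these data known. Whether mice shared a cage or sorting day is not given, and p-values measure the spread between these libraries. Gene models are GENCODE M21, of another release than the authors' reference.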

Additional observations from a re-analysis of the deposited data

How the results depend on the processing

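No paired analysis was possible because the groups share no replicate number. Of the 23 alternatives of the treatment contrast, 22 called 0 genes and 1, without a filter on low counts, called 7 (5830405F06Rik, B2m, Ccl1, Gzma, mt-Co1, Nfkbia and Plac8), with 163 to 1086 genes at an unadjusted p under 0.05, and none called any of the 8 genes. The log2 fold change of Egr1 was positive in all 23, from 0.38 to 0.72, with adjusted p of 0.518 to 1. Because this contrast chose the genes and the alternatives reuse the same libraries, its sign is a description and supports nothing. Leaving out each mouse moved it from 0.47 to 0.72 and Ier2 from 0.12 (without untreated mouse 2) to 0.23, and moved 4 genes across 0: Nr4a1 from -0.0752 to 0.0161, Nr4a2 from -0.18 to 0.0219, Nr4a3 from -0.20 to 0.0555 and Nab2 from -0.18 to 0.11. For Nr4a2 the sign turned without untreated mouse 4 alone. With the shared title label as a covariate, and without the 3 libraries of one title label (both chosen after seeing the data), Nr4a1 was at 0.0131 and 0.00307.

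No gene followed Egr1 at the adjusted threshold under any of the 25 alternatives run, with 232 to 1171 genes at an unadjusted p under 0.05. Settings with fewer orders of mice, from 36 in barcode 9 alone and 216 with centring on group and barcode to 17280 with 1 mouse left out, have smallest p of 0.0278, 0.00463 and 5.79e-05, so their 0 says nothing about stability. The median r of the 5 genes was -0.0956 with centring on group and primer barcode and -0.180 in barcode 9 alone, 0.272 without the 3 libraries of one title label, and from 0.29 (without untreated mouse 2) to 0.64 with each mouse left out. With that centring r with Egr1 was -0.0956 for Nr4a2, -0.177 for Nr4a3 and -0.494 for Ier2, and in barcode 9 alone -0.180, -0.0532 and -0.303, and -0.397 for Nab2. Slopes on Egr1 with barcode as a covariate were -0.0108 for Nr4a2, -0.0731 for Nr4a3, -0.0582 for Nab2 and -0.151 for Ier2. Among the other pairs, that centring gave -0.598 for Nr4a2 and Ier2, -0.506 for Nr4a3 and Ier2 and -0.0345 for Nr4a3 and Nab2, and barcode 9 alone gave -0.715 and -0.795 for the first pairs and -0.499 for Nr4a1 and Nab2. Without the 2 libraries under 400000 counts, an alternative chosen after seeing the data, Nab2 and Ier2 gave -0.157 and Nr4a3 and Nab2 -0.00037, and without the 3 libraries of one title label they gave -0.196 and -0.0122 (Nab2 and Ier2 -0.0168 with centring on group and title label). The pair of Nr4a1 and Ier2 ran from -0.25 to 0.0722 with each mouse left out, and was -0.69 with centring on group and barcode and -0.704 in barcode 9 alone. The pair of Nr4a2 and Nr4a3 had r of 0.924 to 0.981 (rho 0.918) and adjusted p of 0.0695 to 0.958 in all 24 alternatives, and its slopes with barcode as a covariate were 1.46 and 0.59, past the threshold without barcode only. The cause of these changes was not tested. The regressions and the alternatives of pairs without Egr1 were chosen after seeing the data.

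Counts under 113 per library limit Egr1 and Nab2, and the 3-count floor of 1.58 to 9.57 CPM limits Egr2 and Egr3. Counting intervals do not cover amplification error, since reads carry no molecular identifier here.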
